A study of Homo sapiens with 12 samples.

Results

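The HOX cluster genes are the 39 protein-coding genes of the count table whose symbol is HOXA, HOXB, HOXC or HOXD followed by a number, of 60671 gene IDs in all, and 38 of them are described here. In GRCh38 the 10 HOXA genes described lie within chr7:27100354-27200091 and the 10 HOXB genes within chr17:48528526-48728750. The 9 HOXC genes lie within chr12:53938831-54056030 and the 9 HOXD genes within chr2:176092721-176190907. The HOXA and HOXB genes are on the minus strand and the HOXC and HOXD genes on the plus strand.

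HOX proteins are transcription factors that bind DNA through a homeodomain, often together with partners of the PBX and MEIS families, and set identity along the body axis of the embryo. Genes with low numbers stand at the 3′ end of a cluster and genes with high numbers at the 5′ end, and Polycomb complexes hold a cluster silent while Trithorax complexes such as those of KMT2A keep it active. In blood, HOXA and HOXB genes are active in stem and progenitor cells, and prolonged expression of HOXA genes with MEIS1 is a known feature of several acute leukemias.

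Total RNA of 3 human cell lines growing in mid-log phase was sequenced, with 4 replicates of each. K562 is an established line from a chronic myeloid leukemia that carries the BCR-ABL1 fusion and has features of erythroid and megakaryocytic precursors. K/VP.5 is 1 clone taken from K562 cells after intermittent and then continuous exposure to etoposide, a drug that traps topoisomerase II on DNA. K562/SSedit-2 is 1 clone of K562 cells that were transfected with Cas9, a guide RNA and a repair template, and 2 of its 3 TOP2A alleles carry an edit that removes a 5′ splice site. Both derived lines descend from K562 and share whatever that parent carries. Since each derived line is 1 clone, an effect of selection or of editing cannot be told apart from a difference between clones. Nothing in the labels says that replicates came from separate cultures, so p-values measure the spread between these samples, which may be technical.

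Library totals were between 28981722 and 43648830 counts, and the targeted gene TOP2A ranged from 352 to 488 CPM (counts scaled to a common library size) in K562, from 268 to 282 CPM in K/VP.5 and from 177 to 208 CPM in K562/SSedit-2. Among libraries that stood apart, in K562/SSedit-2 replicate 4 all 25637 genes with a count had an even count (100%), against 44.3% to 45.8% of genes in the other 11 libraries, so that its finest step is 2 counts. K562 replicate 1 differed most from its group, with a chi-square per degree of freedom of 53.5 to 56.4 against the other K562 replicates, where all other pairs of replicates had 4.82 to 19.5, and it had the lowest TMM scaling factor (0.948). Without K562 replicate 1 the HOX genes called in each comparison were the same, and without K562/SSedit-2 replicate 4 they were the same but for HOXD9 in K562/SSedit-2 against K562. Calls of other lists that were lost without either library are named beside them. The 13 markers of K562 cells summed to 4542 to 5550.2 CPM in K562, against 4397 to 4578 CPM in K/VP.5, with 5729.7 to 6249 CPM in K562/SSedit-2. The 12 markers of other blood cells and stroma summed to 32.7 to 61.0, 57.0 to 68.7 and 47.2 to 66.1 CPM, with MS4A1 and MPO at 0 in K/VP.5 and MS4A1 at 0 in K562/SSedit-2.

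The RefSeq table of promoter windows, 250 bases before to 50 bases after a transcription start in GRCh38.p14, held 27 windows for 20 of the 38 genes. Entries were missing for HOXA5, HOXB2, HOXB3, HOXB4, HOXB5, HOXB6, HOXB7, HOXB8, HOXB9, HOXB13, HOXC6, HOXC8, HOXC9, HOXC10, HOXC11, HOXC12, HOXC13 and HOXD9. Printed here are the windows of 3 genes that were higher in K/VP.5 and have a single start in the table, and the window of HOXA4, a member with no counts in any library, for contrast. Capitals mark each CG, the dinucleotide at which human DNA is methylated (methylation was not measured).
HOXD8, chr2:176129455-176129754, plus strand: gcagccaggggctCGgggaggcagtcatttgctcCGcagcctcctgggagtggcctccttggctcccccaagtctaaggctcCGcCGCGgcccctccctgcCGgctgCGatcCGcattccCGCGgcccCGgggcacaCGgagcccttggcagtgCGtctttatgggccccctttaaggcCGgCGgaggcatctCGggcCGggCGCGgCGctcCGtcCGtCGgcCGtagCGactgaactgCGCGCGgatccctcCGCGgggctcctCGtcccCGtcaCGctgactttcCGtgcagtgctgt
HOXA11, chr7:27185183-27185482, minus strand: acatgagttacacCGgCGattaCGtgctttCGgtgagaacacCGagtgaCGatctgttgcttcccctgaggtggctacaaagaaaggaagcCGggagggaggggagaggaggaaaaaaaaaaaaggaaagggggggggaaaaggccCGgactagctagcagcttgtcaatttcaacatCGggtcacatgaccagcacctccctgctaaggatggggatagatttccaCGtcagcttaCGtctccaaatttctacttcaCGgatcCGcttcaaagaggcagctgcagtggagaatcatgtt
HOXC4, chr12:54016638-54016937, plus strand: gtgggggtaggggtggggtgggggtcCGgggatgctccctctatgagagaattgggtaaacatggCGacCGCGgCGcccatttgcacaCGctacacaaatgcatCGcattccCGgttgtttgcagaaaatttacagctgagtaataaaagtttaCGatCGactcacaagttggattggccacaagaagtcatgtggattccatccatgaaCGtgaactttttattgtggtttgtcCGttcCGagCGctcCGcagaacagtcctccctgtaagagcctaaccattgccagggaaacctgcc
HOXA4, chr7:27130708-27131007, minus strand: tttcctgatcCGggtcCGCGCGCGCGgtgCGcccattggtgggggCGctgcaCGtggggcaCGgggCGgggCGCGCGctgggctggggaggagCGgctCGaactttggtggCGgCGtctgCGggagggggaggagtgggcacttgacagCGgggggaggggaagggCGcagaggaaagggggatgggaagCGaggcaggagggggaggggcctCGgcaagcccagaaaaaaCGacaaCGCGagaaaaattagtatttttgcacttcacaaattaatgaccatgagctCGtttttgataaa

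The HOXD8 window holds 34 CG, the HOXA11 window 13, the HOXC4 window 15 and the HOXA4 window 27. The HOXC4 window is also the HOXC5 window of the table. Over the 27 HOX windows the number of CG ranged from 0 to 44 with a median of 22, and the median over all 35116 windows was 14. On either strand, CCAAT was found in 66.7% of the HOX windows and in 34.6% of all windows. TATAAA was found in 18.5% and 11.5%, and TGATNNAT, a pattern with the core of sites bound by HOX and PBX proteins together, in 11.1% and 7.40%. Some windows belong to the same gene or overlap, so these shares describe the windows and are no test.

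In the parental K562 cells the HOXB cluster was the active one. A gene was called active in a line when its mean RPKM (CPM per kilobase of exon, which allows levels of different genes to be set side by side) was at least 1. By that measure 7 of the 38 genes were active in K562, against 14 in K/VP.5, with 7 in K562/SSedit-2. The 7 genes of K562 were HOXB2, HOXB3, HOXB4, HOXB7, HOXB8, HOXB9 and HOXC9, and the list was the same in K562/SSedit-2. In K/VP.5 the list also held HOXB13, HOXC6, HOXC10, HOXC12, HOXC13, HOXD8 and HOXD9. With CPM divided by the length of exon not shared with other genes, HOXB6 would be active in K562 (1.30 RPKM) and K/VP.5 (1.05 RPKM). In K562/SSedit-2 it would not (0.529 RPKM). No HOXA gene was active in any line. Of all counts that fell in these HOX genes, HOXB genes held 96.3% to 96.4% in K562, against 80.9% to 82.8% in K/VP.5, with 95.8% to 97.1% in K562/SSedit-2.

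**Figure D1:**
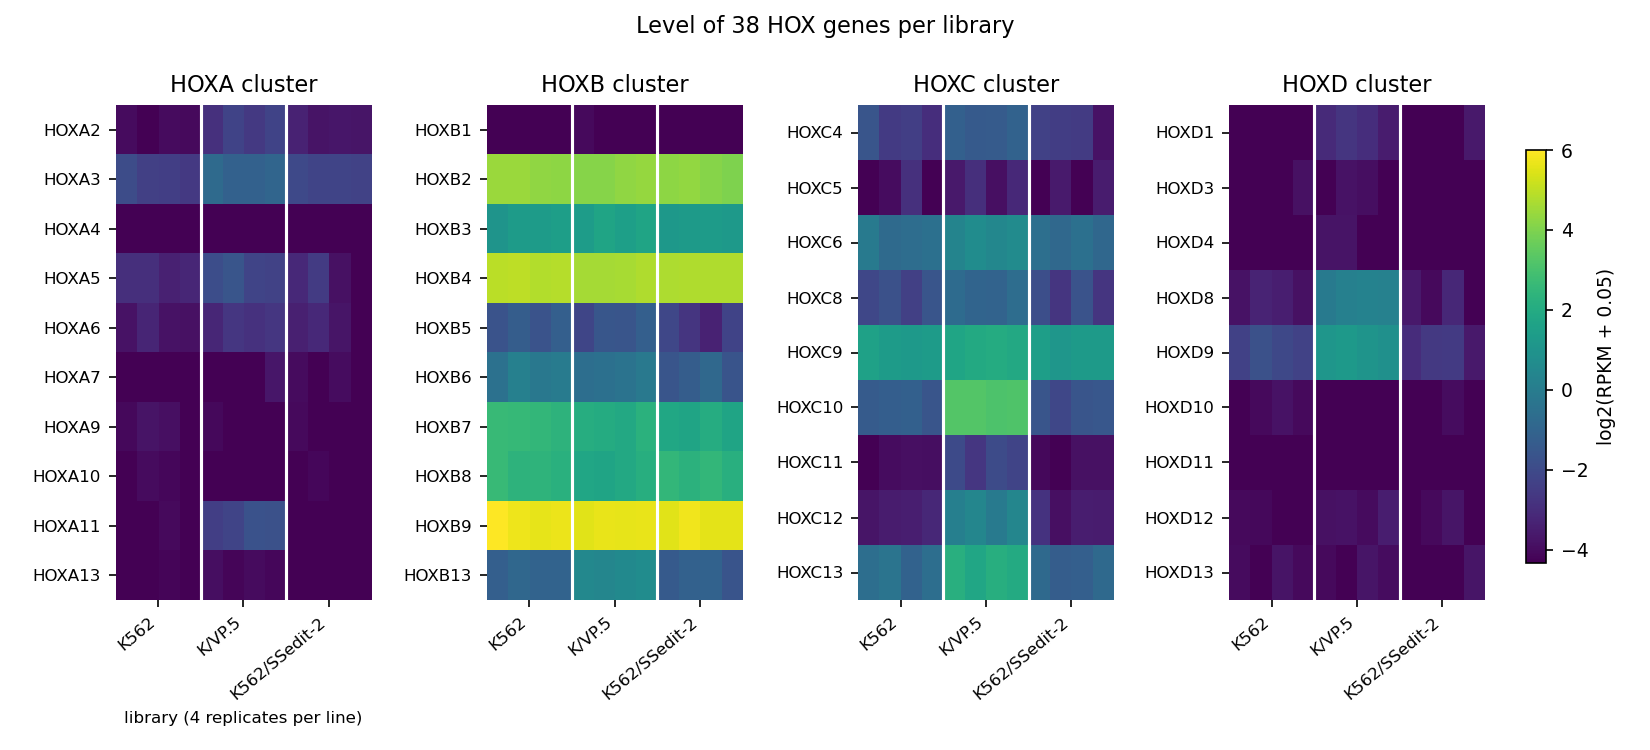
Level of each of the 38 HOX genes (rows, by cluster and in order of gene number) in the 12 libraries (columns, 4 replicates a line, from left to right K562, then K/VP.5, then K562/SSedit-2, separated by white lines), as log2(RPKM + 0.05). HOXB2, HOXB3, HOXB4, HOXB7, HOXB8 and HOXB9 are bright in all 3 lines, while HOXC10, HOXC12, HOXC13, HOXD8 and HOXD9 are brighter in the 4 K/VP.5 libraries than in the other 8.

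A further 12 genes were silent, with no more than 3 counts in any of the 12 libraries: HOXA4, HOXA7, HOXA9, HOXA10 and HOXA13 in the HOXA cluster, HOXB1 in the HOXB cluster, and HOXD3, HOXD4, HOXD10, HOXD11, HOXD12 and HOXD13 in the HOXD cluster. HOXA4 and HOXD11 had 0 counts in every library. A count of 0 allows up to 3 counts, which is 0.0691 to 0.102 CPM in these libraries, so lower levels were not detectable at this depth. This range takes no account of the even counts of K562/SSedit-2 replicate 4, where the limit may be higher. The HOXC cluster was the exception, with no silent gene. HOXA9 and HOXA10, the HOXA genes best known from acute myeloid leukemia, had summed counts of 6 and 3 in K562, against 1 and 0 in K/VP.5, with 1 and 1 in K562/SSedit-2.

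Among active genes of K562, HOXB9 had the highest level at 56.5 ± 11.2 RPKM (SD, n = 4). HOXB4, which expands blood stem cells when overexpressed, followed at 29.6 ± 1.49 RPKM and HOXB2, a hindbrain patterning gene in the embryo, at 20.5 ± 1.47 RPKM. The ranges of these 3 genes did not overlap. Without K562 replicate 1, HOXB9 was at 50.9 ± 2.08 RPKM (n = 3). The next neighbours in the order did overlap: HOXB7 (5.69 ± 0.504 RPKM) with HOXB8 (5.25 ± 0.617 RPKM), and HOXC9 (2.56 ± 0.270 RPKM) with HOXB3 (2.42 ± 0.315 RPKM). In K562/SSedit-2 the order began the same way, with HOXB9 at 49.4 ± 3.60, HOXB4 at 27.0 ± 0.582 and HOXB2 at 18.2 ± 1.78 RPKM. In K/VP.5 these 3 were at 48.9 ± 2.20, 25.1 ± 1.20 and 18.7 ± 1.53 RPKM, and the fourth place was taken by HOXC10 at 9.06 ± 0.386 RPKM.

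**Figure D2:**
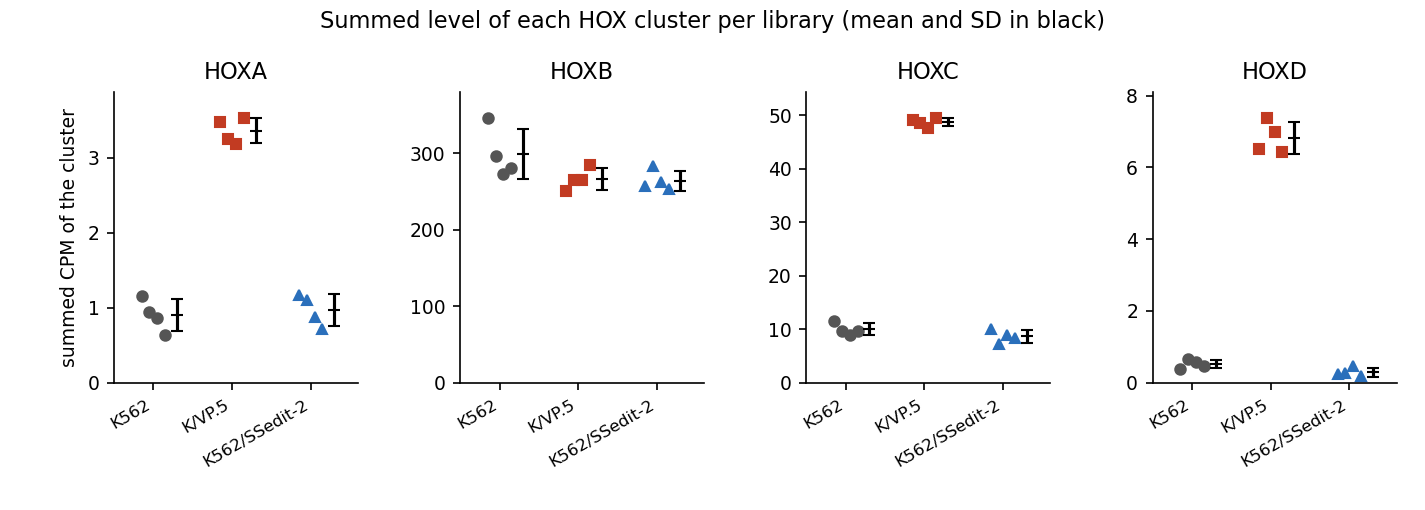
Summed CPM of the genes described of each HOX cluster in each library, with the mean and SD (n = 4) of each line in black and a separate linear axis from 0 for each cluster. The HOXC sum was 48.7 ± 0.773 CPM in K/VP.5 against 9.96 ± 1.09 CPM in K562 and 8.61 ± 1.16 CPM in K562/SSedit-2, while the HOXB sums of the 3 lines overlap.

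Summed over its genes, HOXB was at 299 ± 32.7 CPM in K562, against 267 ± 14.1 CPM in K/VP.5, with 264 ± 13.4 CPM in K562/SSedit-2. The HOXA sum was 0.898 ± 0.216, 3.36 ± 0.167 and 0.965 ± 0.209 CPM in the same order, and the HOXD sum 0.514 ± 0.114, 6.82 ± 0.438 and 0.285 ± 0.128 CPM. Thus K/VP.5 libraries stood above those of both other lines in the HOXA, HOXC and HOXD sums, and the HOXB sums overlapped. In bulk samples such as these, fewer cells that express a gene and less of its RNA per cell cannot be told apart.

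The comparison of K/VP.5 with K562 asks which genes differ between the drug-selected clone and its parent. Of the 38 genes, 22 had enough counts to be tested, 12 were silent, and 4 others were left out for low counts. A gene was called at a fold change of 2 or more and 10% false discovery rate, with adjusted p-values from edgeR's quasi-likelihood test (Benjamini and Hochberg, over 18626 genes). In K/VP.5, 13 HOX genes (59.1% of the 22 tested and 34.2% of the 38) were called higher and 0 lower. Over all genes tested, 15.6% were called, 8.98% higher and 6.66% lower. HOXA5, HOXA11, HOXC11, HOXC12, HOXD8 and HOXD9 entered the test only through their K/VP.5 counts and so had to differ, and their tests are no support for a difference. This leaves 7 of the 13. By cluster, 3 HOXA, 1 HOXB, 7 HOXC and 2 HOXD genes were called. Where the 4 libraries of a line all lie above the 4 of another, a two-sided exact permutation test gives p = 0.0286, the smallest that 4 against 4 allow. This was so for each of these 7 genes. They had been called first, and the share of all genes tested without overlap is not given here, so this adds no support.

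**Figure D3:**
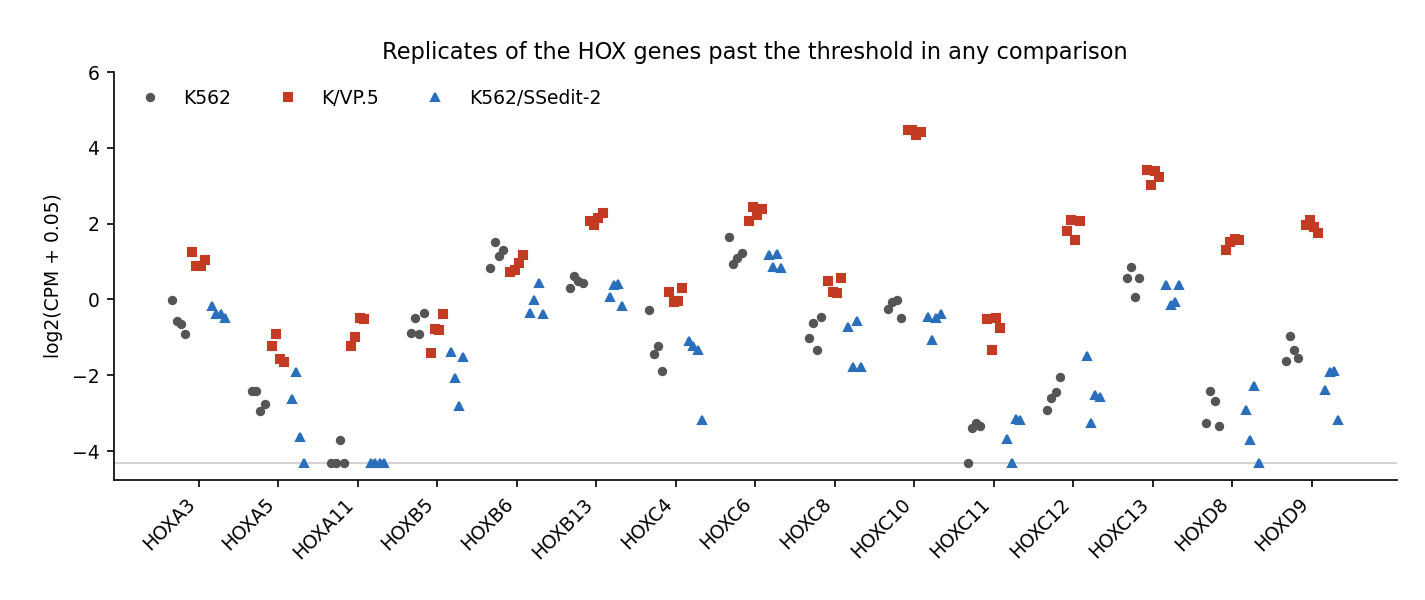
Log2(CPM + 0.05) of each replicate of K562 (grey circles), K/VP.5 (red squares) and K562/SSedit-2 (blue triangles) for the 15 HOX genes called in any comparison, and the grey line marks a count of 0. For 13 genes the 4 K/VP.5 points lie above all others, and for HOXB5 and HOXB6 the K562/SSedit-2 points lie below those of K562.

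The largest gain in RPKM was in the 5′ part of the HOXC cluster. HOXC10, a gene of the posterior trunk and hindlimb, had 29, 39, 35 and 27 counts in K562, against 892, 831, 701 and 626 in K/VP.5. In K562/SSedit-2 it had 24, 16, 21 and 24. The lowest K/VP.5 library was thus far above the highest of the other lines. Its level rose from 0.823 ± 0.127 to 21.5 ± 0.914 CPM, which is a log2 fold change of 4.70 (SE 0.14, adjusted p = 1.51e-13 by edgeR).

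HOXC13, a gene of hair and nail formation at the 5′ end of the cluster, had 52, 76, 37 and 59 counts in K562, against 422, 301, 359 and 276 in K/VP.5. Its level rose from 1.40 ± 0.310 to 9.58 ± 1.17 CPM, which is a log2 fold change of 2.76 (SE 0.17, adjusted p = 1.57e-09 by edgeR). K562/SSedit-2 had 45, 32, 29 and 42 counts, which overlapped those of K562. HOXC12 had 3, 5, 5 and 8 counts in K562, against 137, 159, 101 and 122 in K/VP.5, with 11, 2, 4 and 4 in K562/SSedit-2. From 0.132 ± 0.0471 CPM it rose to 3.68 ± 0.618 CPM (log2 fold change 4.76, SE 0.31, adjusted p = 2.50e-09 by edgeR), and only 1 library outside K/VP.5 reached the filter. HOXC11 was below its neighbours HOXC10 and HOXC12 in K/VP.5, at 0.169 ± 0.0451 RPKM against 9.06 ± 0.386 and 1.13 ± 0.189 RPKM. It had 0, 2, 2 and 2 counts in K562, against 26, 13, 23 and 16 in K/VP.5, with 1, 0, 2 and 2 in K562/SSedit-2. Its log2 fold change was 3.75 (SE 0.50, adjusted p = 1.05e-05 by edgeR), with 6 counts in all behind the K562 value.

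Toward the 3′ end of the HOXC cluster the differences were smaller. HOXC4 had 28, 14, 14 and 9 counts in K562, against 44, 34, 32 and 35 in K/VP.5, and HOXC8 had 16, 26, 13 and 28 against 54, 41, 37 and 42. Their log2 fold changes were 1.30 (SE 0.37, adjusted p = 0.00897 by edgeR) and 1.23 (SE 0.29, adjusted p = 0.00216 by edgeR). K562/SSedit-2 had 15, 14, 11 and 2 counts of HOXC4 and 20, 9, 20 and 8 of HOXC8, in both cases below every K/VP.5 library. HOXC6 was at 3.08, 1.86, 2.07 and 2.28 CPM in K562, against 4.17, 5.40, 4.63 and 5.22 CPM in K/VP.5. Its log2 fold change of 1.06 (SE 0.17, adjusted p = 5.72e-05 by edgeR) lay close to the cutoff, and was 0.95 without K562 replicate 2 and 0.99 without K562 replicate 3, in both cases short of a 2-fold change. K562/SSedit-2, at 2.20, 1.77, 2.25 and 1.73 CPM, overlapped K562. HOXC9, the HOXC gene active in all 3 lines, was at 4.92, 4.10, 3.90 and 4.13 CPM in K562, against 5.50, 6.30, 6.69 and 6.24 CPM in K/VP.5. It was also higher (log2 fold change 0.54, SE 0.12, adjusted p = 0.00179 by edgeR), by less than 2-fold, and at 4.55, 3.46, 3.97 and 4.06 CPM in K562/SSedit-2 it overlapped K562. HOXC5 was not tested, with 0 to 5 counts per library in K562, against 1 to 5 in K/VP.5.

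In the HOXD cluster 2 adjacent genes entered the test, both only through their K/VP.5 counts, so their tests are no support for a difference. The genes on both sides of them were silent or near 0. HOXD9 had 10, 20, 13 and 12 counts in K562, against 155, 159, 128 and 98 in K/VP.5, with 5, 8, 7 and 2 in K562/SSedit-2. It rose from 0.344 ± 0.0838 to 3.78 ± 0.377 CPM, which is a log2 fold change of 3.44 (SE 0.23, adjusted p = 2.57e-09 by edgeR), with 3 libraries outside K/VP.5 at the filter's minimum where 4 are needed. HOXD8 had 2, 6, 4 and 2 counts in K562, against 96, 105, 103 and 86 in K/VP.5, with 3, 1, 5 and 0 in K562/SSedit-2. It rose from 0.0873 ± 0.0430 to 2.77 ± 0.261 CPM (log2 fold change 4.92, SE 0.35, adjusted p = 8.32e-09 by edgeR). HOXD10, next to HOXD9 on the 5′ side, had 0, 1, 2 and 1 counts in K562 and 0 in every K/VP.5 library, and HOXD4, on the 3′ side of HOXD8, had 1, 1, 0 and 0 counts in K/VP.5 with 0 elsewhere. HOXD1, at the 3′ end, had 0 counts in all K562 libraries and 5, 7, 5 and 2 in K/VP.5, 7.07-fold higher than a floor of 3 counts over the 4 K562 libraries. With counting error in both lines taken in, the 95% lower limit for the ratio of summed counts was 5.21. HOXD1 had 0, 0, 0 and 2 counts in K562/SSedit-2, and 60.1% of its exon bases are covered by other genes' exons, among them HAGLR on the opposite strand.

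In the HOXA cluster the called genes were HOXA3, HOXA5 and HOXA11, each at a low level. HOXA11, a gene of limb and uterus formation, had 0, 0, 1 and 0 counts in K562, against 15, 17, 23 and 19 in K/VP.5. The depth-scaled ratio of summed counts was 82.6 (95% interval 14.4 to 3306, for counting error only), with an edgeR log2 fold change of 5.77 (SE 0.64, adjusted p = 5.57e-06), which was 7.26 without K562 replicate 3, the library with that 1 count. All 4 K562/SSedit-2 libraries had 0 counts of HOXA11. The gene was thus near 0 outside K/VP.5, and in K/VP.5 it stayed below the level called active, at 0.200 ± 0.0537 RPKM.

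HOXA3, needed for the thymus, had 34, 27, 22 and 20 counts in K562, against 94, 67, 62 and 59 in K/VP.5, with 30, 27, 23 and 22 in K562/SSedit-2 (log2 fold change in K/VP.5 1.59, SE 0.21, adjusted p = 7.57e-06 by edgeR). HOXA5, needed for the lung, had 5, 6, 3 and 4, then 15, 18, 10 and 8, then 4, 8, 1 and 0 in the same order of lines (log2 fold change 1.62, SE 0.49, adjusted p = 0.0121 by edgeR). In K562/SSedit-2 both overlapped K562. HOXA2 was not tested, with 1, 0, 1 and 1 counts in K562, against 8, 14, 9 and 11 in K/VP.5, with 4, 2, 2 and 2 in K562/SSedit-2. The ratio of its summed counts, K/VP.5 to K562, was 15.6 (95% interval 4.99 to 78.8). Between these genes lay silent ones: HOXA4, between HOXA3 and HOXA5, had no counts, and HOXA7 and HOXA9, between HOXA6 and HOXA10, had at most 2 and 3. HOXA6 had 1 to 3 counts per library in K562, against 3 to 5 in K/VP.5, with 0 to 3 in K562/SSedit-2, and 40.1% of its exon bases are shared with other genes.

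**Figure D4:**
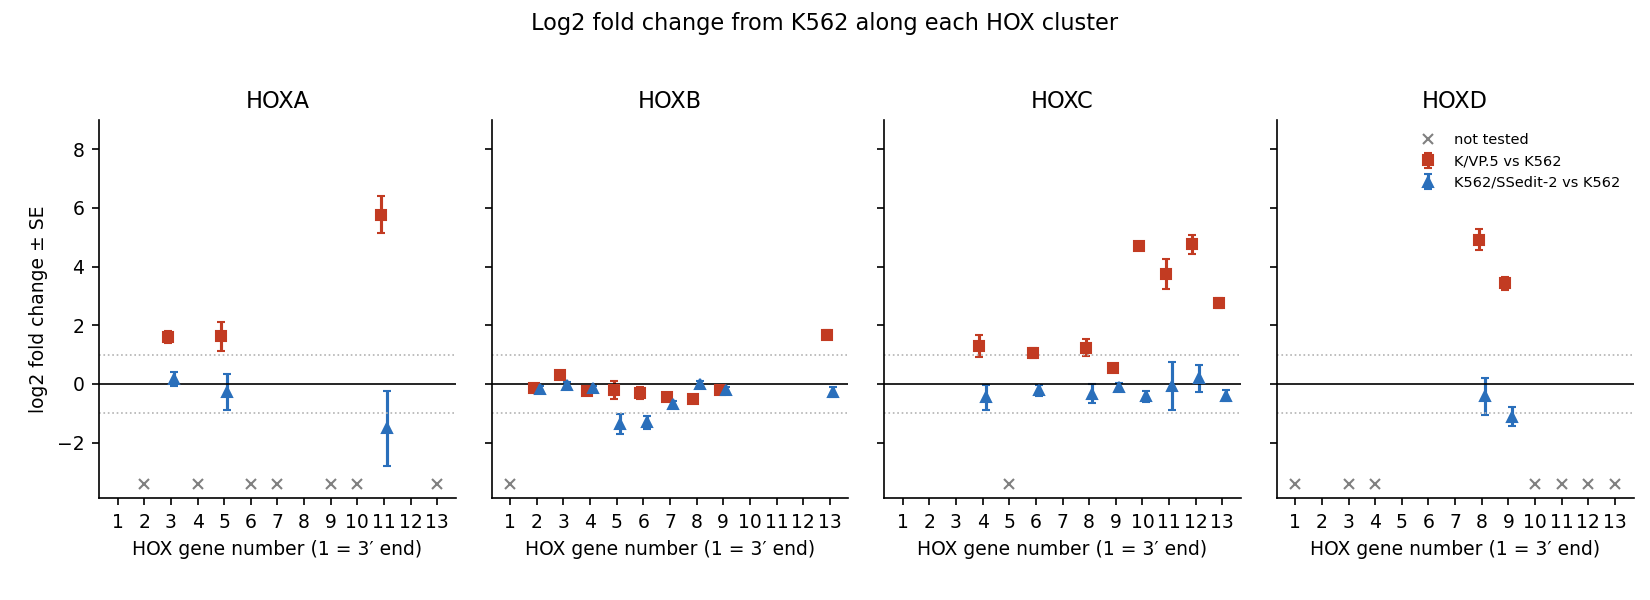
Log2 fold change ± SE from K562 (edgeR) of each tested HOX gene, for K/VP.5 (red squares) and K562/SSedit-2 (blue triangles), against the gene's number in its cluster, with crosses at the bottom for genes not tested and dotted lines at a 2-fold change. Both comparisons share the 4 K562 libraries, and the K562/SSedit-2 point of HOXA11 rests on at most 1 count a line. HOXB2 to HOXB9 lie within 1 log2 unit of 0 in K/VP.5, while HOXB13 and all tested HOXA, HOXC and HOXD genes lie above 0.

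The HOXB genes that were active in K562 moved little in K/VP.5, and not all in 1 direction. HOXB8, which blocks the maturation of myeloid progenitors when overexpressed, had 536, 522, 462 and 465 counts in K562, against 327, 294, 307 and 307 in K/VP.5. HOXB7 was at 9.32, 9.11, 8.56 and 7.61 against 6.50, 6.17, 5.65 and 7.29 CPM. HOXB4 was at 61.6, 62.1, 56.1 and 57.4 CPM in K562, against 49.2, 48.7, 49.5 and 53.9 CPM in K/VP.5. All 3 genes were lower in K/VP.5 with no overlap, with log2 fold changes of -0.52 (SE 0.12, adjusted p = 0.00156), -0.44 (SE 0.12, adjusted p = 0.00581) and -0.24 (SE 0.062, adjusted p = 0.00490) by edgeR, short of a 2-fold change. HOXB3 was at 14.7, 18.3, 18.7 and 20.2 CPM in K562, against 19.2, 24.1, 20.7 and 24.1 CPM in K/VP.5, a log2 fold change of 0.29 (SE 0.10, adjusted p = 0.0303 by edgeR) with overlapping libraries. Without the fold cutoff, 15 HOX genes were higher and 3 lower at 10% false discovery rate, against 26.2% higher and 26.1% lower of all genes tested. The 15 include the 6 genes that entered the test only through K/VP.5, whose tests are no support for a difference.

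HOXB2 was at 53.1, 53.8, 47.4 and 47.1 CPM in K562, against 43.2, 42.7, 47.5 and 50.6 CPM in K/VP.5, and HOXB9 at 189, 136, 126 and 133 against 118, 130, 127 and 131 CPM. Neither difference passed (log2 fold changes -0.13 and -0.21, adjusted p = 0.221 and 0.119 by edgeR), and without K562 replicate 1, the highest library, that of HOXB9 was -0.080. HOXB5 (18, 29, 18 and 30 counts in K562, against 13, 20, 18 and 21 in K/VP.5) and HOXB6 (63, 121, 81 and 99 against 64, 63, 65 and 65) overlapped as well, with adjusted p = 0.606 and 0.216 by edgeR. HOXB13 stands apart from the rest of the cluster at its 5′ end and is best known from prostate and hindgut. It had 43, 65, 50 and 54 counts in K562, against 166, 145, 151 and 141 in K/VP.5, with 36, 47, 41 and 28 in K562/SSedit-2. Alone among tested HOXB genes it was called in K/VP.5, with a rise from 1.33 ± 0.129 to 4.29 ± 0.388 CPM (log2 fold change 1.68, SE 0.16, adjusted p = 1.89e-07 by edgeR).

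Non-coding RNAs of the clusters were counted in a list of 26 names, 24 of them in the table and 12 tested. In K/VP.5, 9 were called higher than in K562 and 0 lower, with 4 of the 9 (HOTAIRM1, HOXC13-AS, HAGLR and HAGLROS) in the test only through K/VP.5, where 8.98% of all genes tested were called higher. Without those 4, 5 of 8 were called higher, with a median log2 fold change of 1.1 against 0.0067 over all genes tested. HAGLR, transcribed opposite to HOXD1, had 85, 103, 89 and 55 counts in K/VP.5 and 0 in all libraries of both other lines. This was 123.5-fold higher than a floor of 3 counts over the 4 K562 libraries (95% lower limit of the ratio 99.9). HAGLROS, next to it, had 25, 21, 18 and 16 counts in K/VP.5 and 0 elsewhere, 29.8-fold higher than the same floor (95% lower limit of the ratio 23.7). HOTAIRM1, an antisense RNA of the HOXA cluster, had 0, 2, 1 and 0 counts in K562, against 28, 28, 19 and 30 in K/VP.5, with 0 in K562/SSedit-2. All 3 RNAs were at or near 0 outside K/VP.5.

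HOXB-AS4 rose from 1.81 ± 0.161 to 3.69 ± 0.246 CPM (log2 fold change 1.03, adjusted p = 5.88e-05 by edgeR, and 0.97 without K562 replicate 1, short of 2-fold), HOXC-AS1 from 0.514 ± 0.123 to 1.29 ± 0.226 CPM, and HOXA-AS2 from 0.238 ± 0.0692 to 0.832 ± 0.111 CPM. In the HOXC cluster, HOXC-AS2 rose from 1.25 ± 0.318 to 6.41 ± 0.856 CPM (log2 fold change 2.34, adjusted p = 1.65e-08 by edgeR), and HOXC13-AS had 0, 2, 0 and 0 counts in K562, against 36, 29, 26 and 29 in K/VP.5. HOTAIR, an RNA from between HOXC11 and HOXC12, was not tested, with 1, 2, 1 and 1 counts in K562, against 6, 7, 4 and 6 in K/VP.5, with 1, 0, 0 and 0 in K562/SSedit-2. HOXA11-AS, also not tested, had 11, 7, 8 and 5 counts in K/VP.5 and 0 in both other lines. The strand setting of the counting is not given in the sources used here, so reads of a gene and its antisense partner cannot be told apart, nor can reads in exons that genes of the same strand share. Exons of other genes on either strand touch HOXA11 (27.2% of its exon bases overlapped), HOXD8 (24.4%), HOXA3 (19.9%), HOXC4 (17.5%), HOXC6 (16.1%), HOXC9 (9.78%), HOXC10 (9.66%) and HOXC13 (7.30%), while HOXB13, HOXC8, HOXC11, HOXC12, HOXA5 and HOXD9 overlap no other gene's exons. The overlap of HOXA11, HOXD8 and HOXC13 is with antisense genes and that of HOXC4 with genes of its own strand, which also cover 16.1% of HOXC6, 9.29% of HOXA3, 4.38% of HOXC9 and part of HOXC10.

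The clusters also hold miRNA hairpins, of which MIR196A1, near HOXB9, passed the filter. Its mature product is shown, since the locus was called, beside that of MIR196B in the HOXA cluster, which has the same seed (bases 2 to 8, in capitals).
miR-196a-5p: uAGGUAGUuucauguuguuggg
miR-196b-5p: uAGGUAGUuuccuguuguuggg
The MIR196A1 locus had 8, 12, 10 and 9 counts in K562, against 20, 25, 18 and 16 in K/VP.5, with 14, 9, 12 and 22 in K562/SSedit-2, and its log2 fold change in K/VP.5 was 1.17 (SE 0.30, adjusted p = 0.00447 by edgeR). MIR196B and MIR10A had 0 counts in every library. Counts over a hairpin in RNA-seq of long fragments come from primary transcripts and do not measure the mature miRNA.

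Of the 9 TALE cofactors, the homeodomain partners of HOX proteins, 8 were tested, and 3 were called higher in K/VP.5 and 1 lower, set against K562 (8.98% higher and 6.66% lower of all genes tested). MEIS1, the partner known from leukemia, rose from 0.152 ± 0.0612 to 3.47 ± 0.647 CPM (log2 fold change 4.49, SE 0.34, adjusted p = 1.37e-08 by edgeR) and was at 0.109 ± 0.0751 CPM in K562/SSedit-2. PKNOX2 had 1 count in all K562 libraries and 344 in K/VP.5, and MEIS3 rose from 0.820 ± 0.308 to 2.76 ± 0.687 CPM. MEIS1 and PKNOX2 entered the test only through K/VP.5. PBX4 was lower (0.952 ± 0.0746 against 0.447 ± 0.144 CPM). PBX2 was at 140 ± 13.1 CPM in K562, against 96.6 ± 3.58 CPM in K/VP.5, lower by less than 2-fold (log2 fold change -0.54, adjusted p = 1.11e-05 by edgeR). The median log2 fold change was -0.012 over the 6 without MEIS1 and PKNOX2.

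Chromatin regulators of the clusters were listed in 2 groups. Of 25 Polycomb genes all 25 were tested, and SUZ12, a core subunit of the complex that methylates histone H3 at silent HOX genes, was the single gene called in K/VP.5, against 15.6% of all genes tested. It was at 108 ± 11.5 CPM in K562, against 52.8 ± 3.01 CPM in K/VP.5, with 119 ± 10.2 CPM in K562/SSedit-2 (log2 fold change in K/VP.5 -1.03, SE 0.083, adjusted p = 3.44e-08 by edgeR). Without K562 replicate 1 its log2 fold change was -0.98, short of 2-fold, and PCGF2 was called in its place. PCGF2 (27.0 ± 1.21 against 13.8 ± 1.02 CPM, log2 fold change -0.97, adjusted p = 3.09e-08 by edgeR) and CBX7 (8.42 ± 0.977 against 4.55 ± 0.788 CPM, log2 fold change -0.89, adjusted p = 0.000124 by edgeR), both subunits of the other main Polycomb complex, were lower in K/VP.5 by a little less than 2-fold. EZH2, the methyltransferase of SUZ12's complex, was at 136 ± 5.22 CPM in K562, against 180 ± 4.07 CPM in K/VP.5, higher by less than 2-fold. The median log2 fold change of the list from K562 was -0.0050 for K/VP.5. Of 19 Trithorax and H3K79 genes all were tested and only MLLT3, tested only through K/VP.5, was called (0.103 ± 0.0618 CPM in K562, against 0.813 ± 0.177 CPM in K/VP.5), with a median of -0.071 over the other 18 (15.6% of all genes tested were called). KMT2A itself was at 99.5 ± 13.8 CPM in K562, against 129 ± 8.06 CPM in K/VP.5, a difference of less than 2-fold (log2 fold change 0.37, adjusted p = 0.00425 by edgeR).

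Among 16 genes of cluster architecture and HOX induction, 13 were tested, with 1 called higher and 1 lower in K/VP.5 and a median of -0.072, a share near that of all genes tested (15.6% called). RARG, a retinoic acid receptor, rose from 7.42 ± 0.730 to 23.6 ± 2.18 CPM (log2 fold change 1.67, adjusted p = 7.56e-10 by edgeR), and RARB, another, was lower (0.517 ± 0.0427 against 0.138 ± 0.0457 CPM) and entered the test only through K562. CDX1, CDX2 and CDX4, homeobox activators of HOX genes, had too few counts to be tested. Of 41 genes flanking the clusters 31 were tested and 4 were called higher in K/VP.5, with a median of -0.041, where 8.98% of all genes tested were called higher. They were EVX2, the homeobox gene beside HOXD13 (0.0956 ± 0.0171 against 0.337 ± 0.0354 CPM, tested only through K/VP.5), CHN1 and WIPF1 on the same chromosome, and SNX10 on the HOXA chromosome. WIPF1 rose from 3.35 ± 0.516 to 7.04 ± 0.616 CPM and SNX10 from 0.405 ± 0.217 to 1.25 ± 0.271 CPM. The remaining 27 flanking genes tested were not called. Among them NFE2 (360 ± 19.6 against 191 ± 8.70 CPM, log2 fold change -0.91, adjusted p = 2.94e-09 by edgeR) and SKAP2 (6.42 ± 1.30 against 12.7 ± 0.912 CPM, log2 fold change 0.98, adjusted p = 1.23e-05 by edgeR) differed by a little less than 2-fold, and SKAP2 was called without K562 replicate 1. In a list of 19 ParaHox and other homeobox genes, 7 were tested and DLX3, DLX4 and EN1 were called higher, where 8.98% of all genes tested were, with a median of 0.64 over the 5 that did not enter only through K/VP.5. DLX4, on the HOXB chromosome, rose from 7.83 ± 1.65 to 27.4 ± 2.37 CPM. EN1 was at 0.0843 ± 0.0384 CPM in K562, against 1.05 ± 0.216 CPM in K/VP.5, and entered the test only through K/VP.5, as did DLX3.

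Markers of other cell types moved with the same comparison in both directions. Of the 12 listed, 7 were tested, and COL1A1 (2.59 ± 1.41 against 22.5 ± 3.56 CPM) and COL1A2 (4.64 ± 1.64 against 30.8 ± 1.80 CPM) were called higher in K/VP.5, while CD3D (32.8 ± 12.4 against 8.34 ± 1.71 CPM), LYZ, PTPRC and COL3A1 were called lower. COL3A1 entered the test only through K562 and PTPRC only through K562/SSedit-2. The median of the other 5 tested was -0.23. Of the 13 K562 markers, HBE1 and ALAS2 were called higher and 0 lower, with a median of 0.093, a share near the 15.6% of all genes tested that were called in this comparison. The part of these differences in the HOX result was not tested.

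The comparison of K562/SSedit-2 with K562 asks whether editing TOP2A and cloning were accompanied by other changes. It shares the K562 libraries with the comparison above. Of the 22 HOX genes tested, 3 were called, all lower in K562/SSedit-2, and 6 had an unadjusted p under 0.05. Over all genes tested, 2.06% were called, 1.26% lower and 0.805% higher. Of the 3, 2 were neighbours in the HOXB cluster. HOXB6 had 63, 121, 81 and 99 counts in K562 and 26, 35, 42 and 24 in K562/SSedit-2, and HOXB5 had 18, 29, 18 and 30 against 12, 7, 3 and 10. Neither overlapped. HOXB6 fell from 2.28 ± 0.440 to 0.923 ± 0.280 CPM, with a log2 fold change of -1.31 (SE 0.22, adjusted p = 0.00112 by edgeR), and HOXB5 from 0.594 ± 0.123 to 0.229 ± 0.110 CPM, with a log2 fold change of -1.36 (SE 0.35, adjusted p = 0.0237 by edgeR).

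Without the fold cutoff 4 HOX genes were lower and 0 higher at 10% false discovery rate, against 7.79% lower and 4.86% higher of all genes tested. The fourth was HOXB7, the next gene on the 5′ side. It was at 5.33, 4.90, 6.25 and 4.95 CPM in K562/SSedit-2, below all 4 K562 libraries, and its log2 fold change was -0.69 (SE 0.12, adjusted p = 0.00148 by edgeR), less than 2-fold. HOXB-AS3, antisense across HOXB5 and HOXB6, was the only non-coding RNA of the list called in this comparison (1.29 ± 0.126 against 0.634 ± 0.132 CPM, log2 fold change -1.03, adjusted p = 0.00498 by edgeR). Without K562/SSedit-2 replicate 4 the log2 fold changes were -1.20 for HOXB6, -1.49 for HOXB5, -0.64 for HOXB7 and -1.09 for HOXB-AS3, each at the same call. HOXB-AS3 overlaps exons of both genes, 33.0% of the exon bases of HOXB6 being shared with HOXB3 or HOXB-AS3 and 3.93% of those of HOXB5 with HOXB-AS3. The other HOXB genes did not pass the test. HOXB8, with 489, 442, 429 and 368 counts, overlapped K562 (log2 fold change -0.017, adjusted p = 0.959 by edgeR), and so did HOXB9 at 121, 141, 124 and 125 CPM (log2 fold change -0.19, adjusted p = 0.293 by edgeR). HOXB2 at 46.9, 49.7, 42.9 and 39.7 CPM and HOXB3 at 16.4, 18.0, 18.5 and 17.2 CPM also overlapped K562. HOXB4 was at 52.5, 55.2, 54.5 and 54.0 CPM, each library below the lowest of K562, with a log2 fold change of -0.13 (SE 0.062, adjusted p = 0.211 by edgeR).

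The third gene called, HOXD9, had 10, 20, 13 and 12 counts in K562 and 5, 8, 7 and 2 in K562/SSedit-2. Its log2 fold change was -1.11 (SE 0.33, adjusted p = 0.0526 by edgeR), and without K562/SSedit-2 replicate 4, the library of even counts, it was -0.84 (adjusted p = 0.16) and not called. With the counts of that library divided by 2 the same 3 genes were called. HOXD9 was also lost without K562/SSedit-2 replicate 1 (adjusted p = 0.11 by edgeR) or K562 replicate 2 (log2 fold change -0.93, adjusted p = 0.17 by edgeR). Of the other HOX genes that were higher in K/VP.5, 0 passed the test between K562/SSedit-2 and K562. HOXA11 had at most 1 count in all libraries of each of these lines, and the log2 fold changes of the others were between -0.46 (HOXC4) and 0.19 (HOXC12). HOXA2, not tested, had 4, 2, 2 and 2 counts in K562/SSedit-2 against 1, 0, 1 and 1 in K562.

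Of the other lists, 0 TALE, Polycomb, Trithorax, flanking and ParaHox genes were called between K562/SSedit-2 and K562, where 2.06% of all genes tested were called. RARB was called lower (0.517 ± 0.0427 against 0.180 ± 0.0916 CPM, log2 fold change -1.50, adjusted p = 0.00981 by edgeR). HBE1 of the K562 markers was called higher (0.484 ± 0.0561 against 1.65 ± 0.343 CPM), and COL3A1 of the other markers lower. RARB and COL3A1 entered the test only through K562, so their tests are no support for a difference. Without K562/SSedit-2 replicate 4, RARB and HBE1 were still called (log2 fold changes -1.35 and 1.64), and COL3A1 was not (-1.33, adjusted p = 0.123 by edgeR). Medians of these lists ranged from -0.54 for the 7 ParaHox and other homeobox genes tested to 0.31 for the K562 markers, against -0.013 over all genes.

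Set directly against each other, K562/SSedit-2 and K/VP.5 differed in 14 HOX genes, all lower in K562/SSedit-2, which is 63.6% of the 22 tested and 36.8% of the 38. Over all genes tested, 15.8% were called, 9.62% lower and 6.20% higher. They were the 13 genes called between K/VP.5 and K562, and HOXB5. The 6 genes that entered the test only through K/VP.5 are among them, which leaves 8. HOXC10 had the lowest adjusted p (log2 fold change -5.12, SE 0.15, adjusted p = 1.03e-13 by edgeR). HOXA11, with 0 counts in K562/SSedit-2, was 24.1-fold lower when set at a floor of 3 counts over the 4 libraries (95% upper limit of the ratio 0.0522). HOXB5 had a log2 fold change of -1.15 (SE 0.36, adjusted p = 0.0142 by edgeR) with overlapping libraries, and was not called without K/VP.5 replicate 4 (-0.97) or K562/SSedit-2 replicate 3 (-0.90). Without the fold cutoff 18 were lower and 1 higher, against 27.8% and 26.2% of all genes tested. The 18 include the same 6 genes that entered the test only through K/VP.5. HOXB6 lay at the cutoff, with a log2 fold change of -0.99 (SE 0.22, adjusted p = 0.00140 by edgeR).

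Of the HOXB genes, HOXB8 alone was higher at 10% false discovery rate in the edited clone, at 12.5 ± 1.28 CPM against 8.82 ± 1.14 CPM in K/VP.5 (log2 fold change 0.50, SE 0.12, adjusted p = 0.00196 by edgeR), with no overlap. HOXB3 was lower (log2 fold change -0.33, adjusted p = 0.0148 by edgeR). HOXB2 and HOXB9 had log2 fold changes of -0.036 (SE 0.084) and 0.014 (SE 0.10), with adjusted p = 0.754 and 0.928 by edgeR. Of the non-coding RNAs, 7 of 12 tested were lower in K562/SSedit-2 and 0 higher (9.62% lower and 6.2% higher of all genes tested). Without those that entered the test only through K/VP.5, 3 of 8 were lower. Among 8 TALE genes tested, 3 were called lower (MEIS1, MEIS3 and PKNOX2), and among 25 Polycomb genes 1 was called higher (SUZ12). In the Trithorax list 1 of 19 was called lower (MLLT3). In the architecture list it was 2 of 13, RARG among them, and in the flanking list 2 of 31 (SNX10 and EVX2). The ParaHox list had 5 of 7 called lower (MNX1, DLX2, DLX3, DLX4 and EN1). MEIS1, PKNOX2, MLLT3, EVX2, DLX3 and EN1 entered the test only through K/VP.5. Of the markers of other cell types, COL1A1 (22.5 ± 3.56 CPM in K/VP.5 against 2.16 ± 0.470 CPM) and COL1A2 (30.8 ± 1.80 against 4.21 ± 1.23 CPM) were called lower in K562/SSedit-2, and CD3D, LYZ, PTPRC and COL3A1 higher. PTPRC entered the test only through K562/SSedit-2, so its test is no support for a difference.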

How the data were processed

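RNA-seq of 12 samples, 4 from each of the 3 lines, was analysed. Per the methods and labels, read pairs of 150 bp were aligned against GRCh38 by HISAT2, and the authors deposited raw counts per gene from featureCounts, as whole numbers without normalization. Annotation release, strand setting and handling of multi-mapped reads are not given in the sources used here. Of 60671 IDs, 60401 were found in GENCODE 44, which gave symbols, positions and union exon lengths.

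Genes were filtered with filterByExpr (minimum count 10), scaled by TMM and fitted with edgeR 4.0.16 (quasi-likelihood F test, all 12 samples, Benjamini-Hochberg over 18626 genes) in R 4.3.3. CPM are counts over the TMM-scaled total of tested genes, and RPKM divide them by exon length. Calls need a fold change of 2 at 10% false discovery rate. A gene is said to enter the test only through a line if fewer than 4 libraries of the other lines reached the filter's minimum. SEs are the log2 fold change over the square root of F. Ratios of small summed counts have conditional Clopper-Pearson 95% intervals, and intervals and floors of 3 counts cover counting error only. Both take the even counts of K562/SSedit-2 replicate 4 as they stand. Sequences are RefSeq's (GRCh38.p14).

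Members and lists were chosen with earlier results of these data known, and 1 HOX gene and 1 marker are not reported here. HOX genes were described in full if called in any comparison or active in any line. Of other lists, called genes of at least 1 CPM are named (the 6 of lowest adjusted p if more), and PBX4, MLLT3, RARB, EVX2, CHN1, DLX3, PTPRC, COL3A1, PBX2, EZH2, PCGF2, CBX7, NFE2, SKAP2, KMT2A, HOXA-AS2, HOTAIR and HOXA11-AS were chosen after their values were seen. On data simulated for 18626 genes, 99% (K/VP.5 against K562), 99.5% (K562/SSedit-2 against K562) and 97.4% (K562/SSedit-2 against K/VP.5) of genes with a 4-fold change were recovered. No replicates were duplicates (chi-square per degree of freedom at least 4.82). Replicate numbers come from the titles. Deviations of same-numbered samples correlated with r of 0.135 to 0.292 between K562/SSedit-2 and K562, where samples of unlike number reached 0.128. These numbers may therefore pair the samples, which the main fit does not take in. In the other comparisons r of same-numbered samples was -0.0027 to 0.269 and -0.095 to 0.161. The alternatives were other scalings, DESeq2 1.42.0, limma 3.58.1 voom, other filters, thresholds and sample sets, the replicate block, each replicate left out, and, added after seeing the data, K562/SSedit-2 replicate 4 divided by 2 and calls of the other lists without the libraries that stand apart. Figures were drawn with matplotlib 3.10.9.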

Additional observations from a re-analysis of the deposited data

Results flagged for a closer look

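In 2 of 62 groups of 4 replicates, 1 replicate lay far from the other 3 by Dixon's test, and chance flags about 1 in 20 such groups. HOXB9 was at 189 CPM in K562 replicate 1 and at 126 to 136 CPM in the other K562 replicates. HOXB4 was at 53.9 CPM in K/VP.5 replicate 4 and at 48.7 to 49.5 CPM in the others.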

How the results depend on the processing

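The 13 genes called in K/VP.5 against K562 were the same 13 under both other scalings, DESeq2, limma voom, a fit of the 2 lines, an adjusted p under 0.05 and with K562/SSedit-2 replicate 4 divided by 2. Without a filter 15 were called, with a filter of 1 CPM in 4 samples 9, without a fold cutoff 18, and 12 to 13 with a replicate left out. Over the same alternatives, 2 to 4 genes were called in K562/SSedit-2 against K562 (2 to 3 with a replicate left out; 2 with the 1 CPM filter, with only these 2 lines or at an adjusted p under 0.05) and 9 to 19 in K562/SSedit-2 against K/VP.5 (9 with the 1 CPM filter, 13 to 15 with a replicate left out). Under a block by replicate number, 13, 3 and 15 genes were called, HOXB6 being added in the last comparison, and no other call changed. HOXB6 was also called there with upper-quartile scaling (-1.03) and limma voom (-1.01), and without K/VP.5 replicate 1 or 2 or K562/SSedit-2 replicate 3. At a mean of 1 CPM in place of 1 RPKM, 11 genes were active in K562, against 18 in K/VP.5, with 10 in K562/SSedit-2. Other limits for an active gene gave 7 to 10 genes in K562, against 10 to 16 in K/VP.5, with 7 to 8 in K562/SSedit-2. Some small log2 fold changes that were not called changed sign, and the cause was not tested. For HOXB8 in K562/SSedit-2 against K562 it was 0.016 with upper-quartile scaling and 0.0011 with the 1 CPM filter, and for HOXB9 in K562/SSedit-2 against K/VP.5 it was -0.024 with upper-quartile scaling. With a replicate left out, log2 fold changes from K562 to K562/SSedit-2 ranged from -1.14 to 0.12 for HOXA5, -0.12 to 0.021 for HOXB3, -0.065 to 0.067 for HOXB8, -0.41 to 0.37 for HOXC11 and -0.43 to 0.50 for HOXC12. From K/VP.5 to K562/SSedit-2 they ranged from -0.080 to 0.024 for HOXB2 and -0.028 to 0.061 for HOXB9. In all, 1332 of the values recomputed for single genes kept direction and call. The median of all genes moved by at most 0.068 under other scalings. Depth limits the HOXA genes other than HOXA3, the HOXD genes, HOXB1, HOXB5, HOXC4, HOXC5, HOXC8, HOXC11 and HOXC12, where some libraries held fewer than 10 counts.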
